A study of Saccharomyces cerevisiae with 8 samples.

Results

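The genes described here encode the factors and enzymes with which a yeast cell translates messenger RNA in the cytosol. The 48 listed genes were found by their symbols in the platform annotation of the array. They comprise 23 initiation factor genes, 7 elongation factor genes and 18 aminoacyl-tRNA synthetase genes. Of these, 46 had a probe set of their own, of 5449 Saccharomyces cerevisiae genes that had one. TIF1 and EFT1 had none of their own, and the probe sets of TIF2, EFT2 and TEF2 are marked by the manufacturer as shared with related sequences, so each of those 3 reads may hold signal of a sister gene. All 46 passed the filter on dim probe sets and were tested.

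RNA was measured on Affymetrix yeast arrays, on which short probes read each gene as a fluorescence signal, in 3 strains and 8 arrays. The double mutant (esa1 sup2-, 3 arrays) carries mutations in ESA1 and SUP2, the single mutant (ESA1 sup2-, 3 arrays) only the sup2- mutation, and the wild type (ESA1 SUP2, 2 arrays) neither. ESA1 encodes the catalytic subunit of the NuA4 histone acetyltransferase. Cultures of 10 mL had grown overnight at 30 °C to saturation in rich YPD medium with 2% glucose. No strain with esa1 alone was included, so the double mutant shows the absence of ESA1 only in cells that also carry sup2-. The labels do not say whether replicates came from separate cultures or isolates, and p-values then measure the spread between these samples.

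Translation begins when initiation factors bring a charged initiator tRNA, the small ribosomal subunit and the capped end of an mRNA together and find the start codon. Elongation factors then deliver charged tRNAs to the ribosome and move it along the message, and synthetases join each amino acid to its tRNA. In yeast these genes are expressed strongly in growing cells, together with ribosomal protein genes, and less when cultures leave rapid growth.

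The arrays were first checked for the gene that sets the strains apart. The ESA1 signal was 1.19, 3.34 and 0.267 in the double mutant, 819, 894 and 877 in the single mutant, and 1216 and 1067 in the wild type, so it was at background on every double-mutant array and on none of the others. The lowest signal of any of the 46 genes on any array was 453.7, against a background bound of at most 12.4. The trimmed mean signal was 499.8 on every array. The SD of log2 differences between replicate arrays was 0.262 to 0.323 in the double mutant, 0.0900 to 0.21 in the single mutant and 0.111 in the wild type. Replicate 2 of the single mutant stood apart from the other two, which differed by only 0.0900. Each strain was run on its own fluidics station, so station and strain cannot be told apart in any comparison. Signals are scaled to a common mean and come from bulk RNA, so less RNA per cell and fewer cells holding it cannot be told apart either.

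The 46 genes were mostly brighter in the double mutant than in both other strains. Against the single mutant, 38 were called higher and none lower by limma at an adjusted p under 0.05, over 4398 probe sets of which 31.8% were called higher and 35.8% lower. Their median log2 fold change was 0.53, against -0.025 over all probe sets tested. Relative to the wild type, 41 were higher and 1 lower, where 37.9% of all probe sets were higher and 36.6% lower, and the median was 0.68 against 0.015. In the single mutant relative to the wild type, 17 were higher and 1 lower, where 28.5% of all probe sets were higher and 22.1% lower, with a median of 0.18 against 0.0058. Each strain enters 2 of these 3 comparisons, so they are not independent of each other. Fold changes are on the log2(signal + 121) scale.

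**Figure D1:**
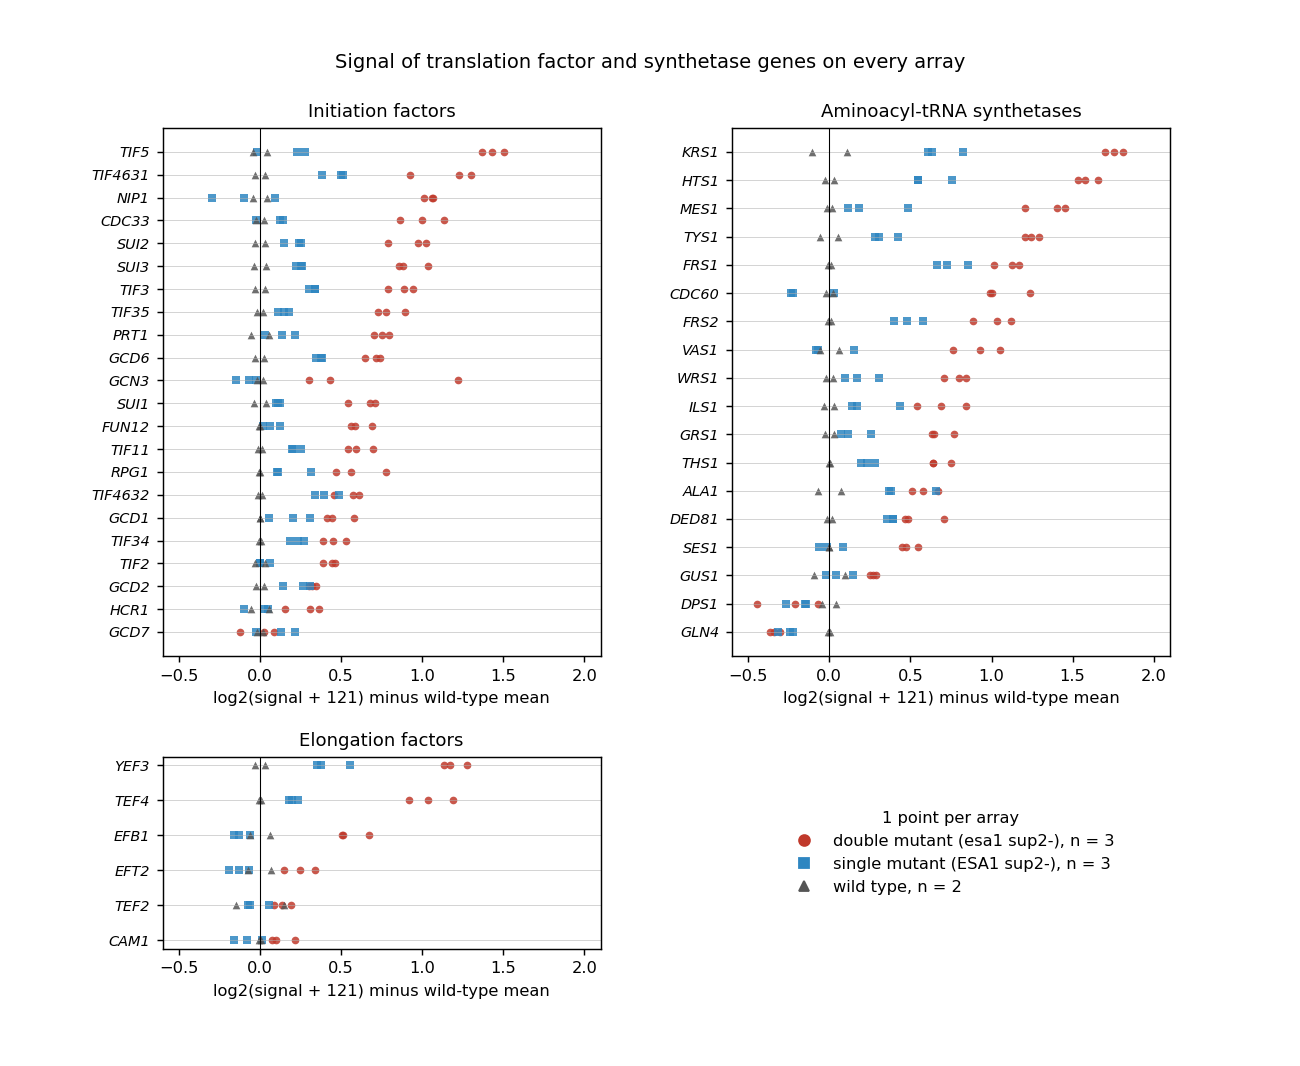
Signal of each of the 46 genes on every array, as log2(signal + 121) minus the mean of the 2 wild-type arrays, with 1 point per array (circles, double mutant; squares, single mutant; triangles, wild type) and genes ordered within each class by their change in the double mutant against the wild type. The double-mutant points lie right of both other strains for most genes, KRS1 reaching a mean of 1.76, while those of GLN4 and DPS1 lie left of the wild type and those of GCD7 overlap it.

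The arrays of the strains separated for most members. In the double mutant, 40 of the 46 genes had all 3 signals above all 3 single-mutant signals and none had them below, where 33.5% of all probe sets were above and 37.3% below. Compared with the wild type, 42 were above and 2 below, where 41.8% and 40.0% of all probe sets were. In the single mutant relative to the wild type, 28 were above and 3 below, where 40.4% and 37.4% of all probe sets were.

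Initiation starts at the cap, and the genes of the cap-binding complex and its helicase were higher in the double mutant. Against the single mutant, 4 of the 5 measured genes were called higher, and all 5 were higher than in the wild type, with median log2 fold changes of 0.55 and 0.87. Of all probe sets, 31.8% and 37.9% were called higher in the same order. CDC33, which encodes the cap-binding protein eIF4E, had signals of 4319, 5241 and 4752 in the double mutant, 2281, 2536 and 2573 in the single mutant, and 2362 and 2275 in the wild type. All 3 double-mutant signals were above those of both other strains, while single mutant and wild type overlapped. CDC33 was higher in the double mutant by 0.92 (limma adjusted p = 2.3e-05, SE 0.084) against the single mutant and by 1.0 (limma adjusted p = 1.4e-05, SE 0.094) against the wild type. TIF2, which encodes the helicase eIF4A, had signals of 7932, 7852 and 7532 in the double mutant, 5726, 5983 and 5738 in the single mutant, and 5612 and 5846 in the wild type on its shared probe set. Its double-mutant arrays stood above the others, with log2 fold changes of 0.41 (limma adjusted p = 1.2e-04, SE 0.05) and 0.43 (limma adjusted p = 1.1e-04, SE 0.056) against the single mutant and the wild type. With quantile normalization these were 0.16 and 0.15, both still called. TIF3, the gene of the helicase cofactor eIF4B, had log2 fold changes of 0.55 (SE 0.07) and 0.87 (SE 0.078) in the double mutant against the single mutant and the wild type, and its arrays did not overlap.

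The factors that choose the start codon and join the ribosomal subunits were all higher in the double mutant. Against the single mutant these were 4 of 4 genes, where 31.8% of all probe sets were higher. Against the wild type they were also 4 of 4, where 37.9% of all probe sets were higher. TIF5 had the largest change of the initiation genes. It encodes eIF5, which makes eIF2 hydrolyse its GTP once the start codon is found. Its signals were 2079.7, 2197 and 1987 in the double mutant, 869, 687 and 838 in the single mutant, and 719 and 672 in the wild type. Every double-mutant signal was far above all others, and single mutant and wild type overlapped. The log2 fold change of TIF5 was 1.27 (limma adjusted p = 6.0e-06, SE 0.093) against the single mutant and 1.43 (limma adjusted p = 2.7e-06, SE 0.10) against the wild type. The genes of eIF1 (SUI1), eIF1A (TIF11) and the subunit-joining GTPase eIF5B (FUN12) moved less, by 0.53 (SE 0.062), 0.39 (SE 0.063) and 0.55 (SE 0.067) against the single mutant. Against the wild type they were at 0.64 (SE 0.07), 0.61 (SE 0.071) and 0.61 (SE 0.075).

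The subunits of eIF2, the GTPase that carries the initiator tRNA, were higher in the double mutant. SUI2, which encodes the alpha subunit that the kinase Gcn2 phosphorylates, had log2 fold changes of 0.71 (SE 0.082) against the single mutant and 0.93 (SE 0.092) against the wild type. For SUI3, the beta subunit gene, these were 0.68 (SE 0.071) and 0.93 (SE 0.08). The gamma subunit gene GCD11, which is not among the 48, was at 0.51 (SE 0.065) and 0.50 (SE 0.072), also called higher.

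The genes of eIF2B, which reloads eIF2 with GTP, were mixed. Of 5, 3 were called higher in the double mutant against the single mutant and 4 against the wild type, with medians of 0.29 and 0.48. These are shares of 60% and 80%, where 31.8% and 37.9% of all probe sets were called higher. GCD6, the gene of the catalytic epsilon subunit, had signals of 990.1, 969 and 918 in the double mutant, 725, 746 and 743 in the single mutant, and 557 and 531 in the wild type. The 3 strains did not overlap, and GCD6 was higher by 0.33 (limma adjusted p = 1.8e-03, SE 0.065) against the single mutant and by 0.70 (limma adjusted p = 2.6e-05, SE 0.073) against the wild type. The call against the single mutant ended when arrays were scaled on the hybridization controls (log2 fold change 0.22, limma adjusted p = 0.059, within 2.8e-04 to 0.059 over its alternatives). GCN3, the regulatory alpha subunit gene, had signals of 770.2, 854 and 1561 in the double mutant, 532, 590.1 and 568 in the single mutant, and 609.8 and 593 in the wild type. Its double-mutant signals were all above the others, but replicate 3 was far above replicates 1 and 2. The log2 fold change of GCN3 was 0.73 (limma adjusted p = 0.011, SE 0.20) against the single mutant, and without replicate 3 it was 0.45 and still called. Relative to the wild type GCN3 was at 0.65 (limma adjusted p = 0.027, SE 0.23), and at 0.37 without that array. This call ended without either wild-type array, with limma adjusted p = 0.093 without replicate 1 and 0.108 without replicate 2 (2.6e-05 to 0.108 over its alternatives).

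The other eIF2B subunits differed little between the mutants. GCD1, the gamma subunit gene, was at 0.29 (limma adjusted p = 0.015, SE 0.086) against the single mutant, a call that ended without single-mutant replicate 1 (0.22, limma adjusted p = 0.068, within 2.1e-03 to 0.159 over its alternatives). GCD2, the delta subunit gene, was not called in that comparison, at 0.084 (limma adjusted p = 0.311, SE 0.07). GCD7, the beta subunit gene, had signals of 669, 638 and 562 in the double mutant, 745, 612 and 693 in the single mutant, and 632 and 614 in the wild type, and all 3 strains overlapped. Its log2 fold change was -0.11 (limma adjusted p = 0.283, SE 0.088) against the single mutant and -0.0027 (limma adjusted p = 0.980, SE 0.10) against the wild type, and it was called in no comparison.

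All 6 measured genes of eIF3, the large scaffold on the small ribosomal subunit, were higher in the double mutant in both comparisons, with medians of 0.52 and 0.68. Over all probe sets, 31.8% were higher against the single mutant and 37.9% against the wild type. NIP1, which encodes the c subunit, had signals of 2144, 2133 and 2057 in the double mutant, 759.7, 1032 and 889 in the single mutant, and 994 and 927 in the wild type. Its double-mutant signals lay close together above all others, and single mutant and wild type overlapped. NIP1 had log2 fold changes of 1.15 (limma adjusted p = 1.8e-05, SE 0.10) and 1.05 (limma adjusted p = 3.1e-05, SE 0.11) in the double mutant against the single mutant and the wild type. The other eIF3 genes had smaller values. TIF35 (g subunit) was at 0.65 (SE 0.067) against the single mutant, PRT1 (b subunit) at 0.62 (SE 0.076) and RPG1 (a subunit) at 0.42 (SE 0.10). HCR1 (j subunit) at 0.28 (SE 0.083) and TIF34 (i subunit) at 0.23 (SE 0.063) had the smallest changes of the 6. Compared with the wild type the log2 fold changes were 0.28 (SE 0.093) for HCR1, 0.46 (SE 0.071) for TIF34, 0.60 (SE 0.11) for RPG1, 0.75 (SE 0.085) for PRT1 and 0.80 (SE 0.075) for TIF35.

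The HCR1 calls ended under several alternatives, with fold changes of the same direction. Against the single mutant it was not called without single-mutant replicate 2 (log2 fold change 0.24, limma adjusted p = 0.050, within 2.2e-03 to 0.223 over its alternatives). Against the wild type it was not called without wild-type replicate 1 or 2, at 0.33 and 0.22 (limma adjusted p = 0.053 and 0.166, within 7.5e-03 to 0.166). With all 8 arrays kept, hybridization control scaling ended both HCR1 calls, at 0.17 against the single mutant and 0.24 against the wild type. The call against the wild type also ended with only the 2 groups compared (0.28, limma adjusted p = 0.052) and with the replicate block (0.26, limma adjusted p = 0.077). Hybridization control scaling ended the calls of RPG1 and TIF34 against the single mutant, at 0.31 and 0.10.

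Elongation factor genes were higher in the double mutant against the single mutant in 5 of 6 cases and against the wild type in 4 of 6, with median log2 fold changes of 0.53 and 0.40. These are shares of 83.3% and 66.7%, where 31.8% and 37.9% of all probe sets were higher. The 2 genes of translocation and recycling were both called in both comparisons. YEF3, which encodes the fungal factor eEF3 that frees the exit site of the ribosome, had the largest change against the wild type among the elongation genes. Its signals were 8208, 8842 and 7980.0 in the double mutant, 4679, 5304 and 4588 in the single mutant, and 3498 and 3652 in the wild type. The 3 strains did not overlap, with the double mutant highest. YEF3 was higher by 0.77 (limma adjusted p = 2.5e-05, SE 0.071) against the single mutant and by 1.19 (limma adjusted p = 1.7e-06, SE 0.08) against the wild type.

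EFT2, which encodes the translocase eEF2, had signals of 8323, 8897 and 7774 in the double mutant, 6394, 6694 and 6115 in the single mutant, and 6665 and 7360.2 in the wild type on its shared probe set. Double-mutant signals were all above the others, and single mutant and wild type overlapped. Against the single mutant the log2 fold change of EFT2 was 0.37 (limma adjusted p = 1.2e-03, SE 0.068). Relative to the wild type it was 0.24 (limma adjusted p = 0.016, SE 0.076), a call that ended without replicate 1 of the wild type (0.17, limma adjusted p = 0.132, within 9.0e-04 to 0.337 over its alternatives). With quantile normalization this value turned to -0.033, and that against the single mutant was 0.12.

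The eEF1 complex delivers charged tRNAs, and its 4 measured genes differed widely. TEF2, the gene of eEF1A, which binds the tRNA, was not called in any of the 3 comparisons. Its signals were 8466, 8815 and 8187 in the double mutant, 7312, 7987 and 7382 in the single mutant, and 6934 and 8521 in the wild type on its shared probe set. Wild-type replicate 2 lay within the range of the double mutant, and the single mutant was below the double mutant. The TEF2 log2 fold change was 0.17 (limma adjusted p = 0.090, SE 0.078) against the single mutant and 0.14 (limma adjusted p = 0.176, SE 0.088) against the wild type. Other settings moved TEF2 across the threshold. Against the single mutant it was called higher under 6 of 20 alternatives, among them median centring (0.30), poly-A control scaling (0.41) and the replicate block (0.17), and with quantile normalization it was -0.070 and not called. Compared with the wild type it was called higher under 3 of 20, poly-A control scaling (0.44), the replicate block (0.16) and the fit without replicate 2 of the wild type (0.29), while without replicate 1 of the wild type it was -0.0060 and with quantile normalization -0.089. EFB1, which encodes the alpha subunit of the exchange factor eEF1B, had signals of 7673, 8635 and 7734 in the double mutant, 4801, 5144 and 4897 in the single mutant, and 5143 and 5617 in the wild type. The double mutant stood above both other strains, which overlapped. EFB1 was higher by 0.68 (limma adjusted p = 3.2e-05, SE 0.066) against the single mutant and by 0.56 (limma adjusted p = 1.1e-04, SE 0.074) against the wild type. With quantile normalization these were 0.45 and 0.29, both still called.

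Synthetase genes were higher in the double mutant against the single mutant in 14 of 18 cases, with none lower and a median log2 fold change of 0.51. Against the wild type 16 of 18 were higher and 1 lower, with a median of 0.74. Over all probe sets, 31.8% were higher and 35.8% lower between the mutants, and 37.9% and 36.6% against the wild type. Replicate 1 of the double mutant had the highest signal of its strain for 13 of the 18 genes (72.2%), against 37.1% of all probe sets tested. For replicate 2 of the single mutant these were 16 of the 18 and 46.6%. KRS1 and HTS1 had the largest changes against the wild type of all 46 genes. KRS1, the lysyl-tRNA synthetase gene, had signals of 4695, 4513 and 4339.9 in the double mutant, 2009.9, 2310.5 and 1972 in the single mutant, and 1356 and 1153 in the wild type. HTS1, which encodes both the cytosolic and the mitochondrial histidyl-tRNA synthetase, had 3109.8, 3210.1 and 3397 in the double mutant, 1514, 1769 and 1516 in the single mutant, and 977 and 1018 in the wild type. For both genes the 3 strains did not overlap, and the double mutant was highest. KRS1 was higher in the double mutant by 1.07 (limma adjusted p = 1.2e-05, SE 0.087) against the single mutant and by 1.76 (limma adjusted p = 6.1e-07, SE 0.10) against the wild type. The same log2 fold changes for HTS1 were 0.97 (limma adjusted p = 1.3e-05, SE 0.081) and 1.59 (limma adjusted p = 6.6e-07, SE 0.09).

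CDC60 and MES1 had the largest changes of the synthetases between the mutants. CDC60, the leucyl-tRNA synthetase gene, had signals of 2370.2, 1981 and 2001 in the double mutant, 775, 957 and 785 in the single mutant, and 919.9 and 953 in the wild type. MES1, the methionyl-tRNA synthetase gene, had 1515, 1577 and 1305 in the double mutant, 548, 745 and 581 in the single mutant, and 491 and 505 in the wild type. The double-mutant signals of both lay far above all others, and only for MES1 were single mutant and wild type apart. CDC60 was at 1.22 (limma adjusted p = 1.3e-05, SE 0.10) against the single mutant and 1.08 (limma adjusted p = 2.7e-05, SE 0.11) against the wild type. MES1 was at 1.09 (limma adjusted p = 4.1e-05, SE 0.11) and 1.35 (limma adjusted p = 1.2e-05, SE 0.12) in the same order.

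The remaining class I synthetases, the structural class that also holds CDC60 and MES1, were higher in the double mutant with 1 exception. Of the 8 class I genes, 7 were called higher against the single mutant, with a median of 0.75. This is a share of 87.5%, where 31.8% of all probe sets were called higher. VAS1 (valine) was at 0.91 (SE 0.10), TYS1 (tyrosine) at 0.91 (SE 0.072), WRS1 (tryptophan) at 0.59 (SE 0.079) and ILS1 (isoleucine) at 0.44 (SE 0.10). Relative to the wild type TYS1 was at 1.25 (SE 0.081), VAS1 at 0.91 (SE 0.11), WRS1 at 0.78 (SE 0.088) and ILS1 at 0.69 (SE 0.12). GUS1 (glutamate) moved least of those called, by 0.21 (limma adjusted p = 0.026, SE 0.072) against the single mutant and 0.27 (limma adjusted p = 0.013, SE 0.08) against the wild type. Its call against the single mutant ended without single-mutant replicate 1 or 3 or double-mutant replicate 1 (log2 fold changes 0.18, 0.21 and 0.20). Its call against the wild type ended without replicate 1 of the wild type (0.18).

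GLN4, the glutaminyl-tRNA synthetase gene, was the only one of the 46 genes called lower. Its signals were 988, 1037 and 1004 in the double mutant, 1027, 1100.2 and 1086 in the single mutant, and 1313 and 1299 in the wild type. Every mutant signal was below both wild-type signals, and the mutants overlapped. GLN4 had a log2 fold change of -0.34 (limma adjusted p = 2.6e-03, SE 0.073) in the double mutant against the wild type and -0.076 (limma adjusted p = 0.328, SE 0.066) against the single mutant, which was not called. Scaling on the poly-A controls ended the call against the wild type, at -0.062 (limma adjusted p = 0.805, within 1.8e-03 to 0.805 over its alternatives).

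Of the 10 class II synthetase genes, 7 (70%) were called higher in the double mutant against the single mutant, where 31.8% of all probe sets were. Against the wild type, where 37.9% were, 9 (90%) were called higher, with medians of 0.46 and 0.68 in the same order. Besides KRS1 and HTS1 these included GRS1 (glycine) at 0.53 (SE 0.074) and 0.68 (SE 0.083), SES1 (serine) at 0.49 (SE 0.067) and 0.49 (SE 0.075), and THS1 (threonine) at 0.44 (SE 0.061) and 0.68 (SE 0.068). FRS1 and FRS2 encode the beta and alpha subunits of phenylalanyl-tRNA synthetase, which acts as a tetramer of both. FRS1 had signals of 3011, 2919.8 and 2698 in the double mutant, 2084, 2399 and 2181 in the single mutant, and 1281 and 1265 in the wild type, and the strains did not overlap. It was at 0.36 (limma adjusted p = 3.0e-03, SE 0.077) against the single mutant and 1.10 (limma adjusted p = 4.2e-06, SE 0.086) against the wild type, and FRS2 was at 0.53 (SE 0.084) and 1.01 (SE 0.094), also without overlap.

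ALA1, DED81 and DPS1 were not called between the mutants. ALA1 (alanine) was at 0.12 (limma adjusted p = 0.304, SE 0.10) and DED81 (asparagine) at 0.17 (limma adjusted p = 0.077, SE 0.078) against the single mutant, although both were higher than in the wild type, at 0.59 (limma adjusted p = 9.7e-04, SE 0.11) and 0.55 (limma adjusted p = 3.6e-04, SE 0.087). DPS1, the aspartyl-tRNA synthetase gene, had signals of 3439.5, 2616 and 3097 in the double mutant, 3246, 3255 and 2983 in the single mutant, and 3501 and 3727 in the wild type. Its mutant signals were all below the wild type, and the mutants overlapped. The log2 fold change of DPS1 was -0.24 (limma adjusted p = 0.069, SE 0.11) against the wild type and -0.057 (limma adjusted p = 0.623, SE 0.10) against the single mutant, and it was called in no comparison as reported. Other settings moved DPS1 across the threshold. It was called lower in the double mutant than in the wild type with quantile normalization and without double-mutant replicate 1. In the single mutant it was called lower than in the wild type with only the 2 groups compared. The 4 synthetase genes that also make the mitochondrial enzyme, ALA1, GRS1, HTS1 and VAS1, were all higher against the wild type and in 3 of 4 cases against the single mutant. Of all probe sets, 37.9% and 31.8% were higher in the same order.

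**Figure D2:**
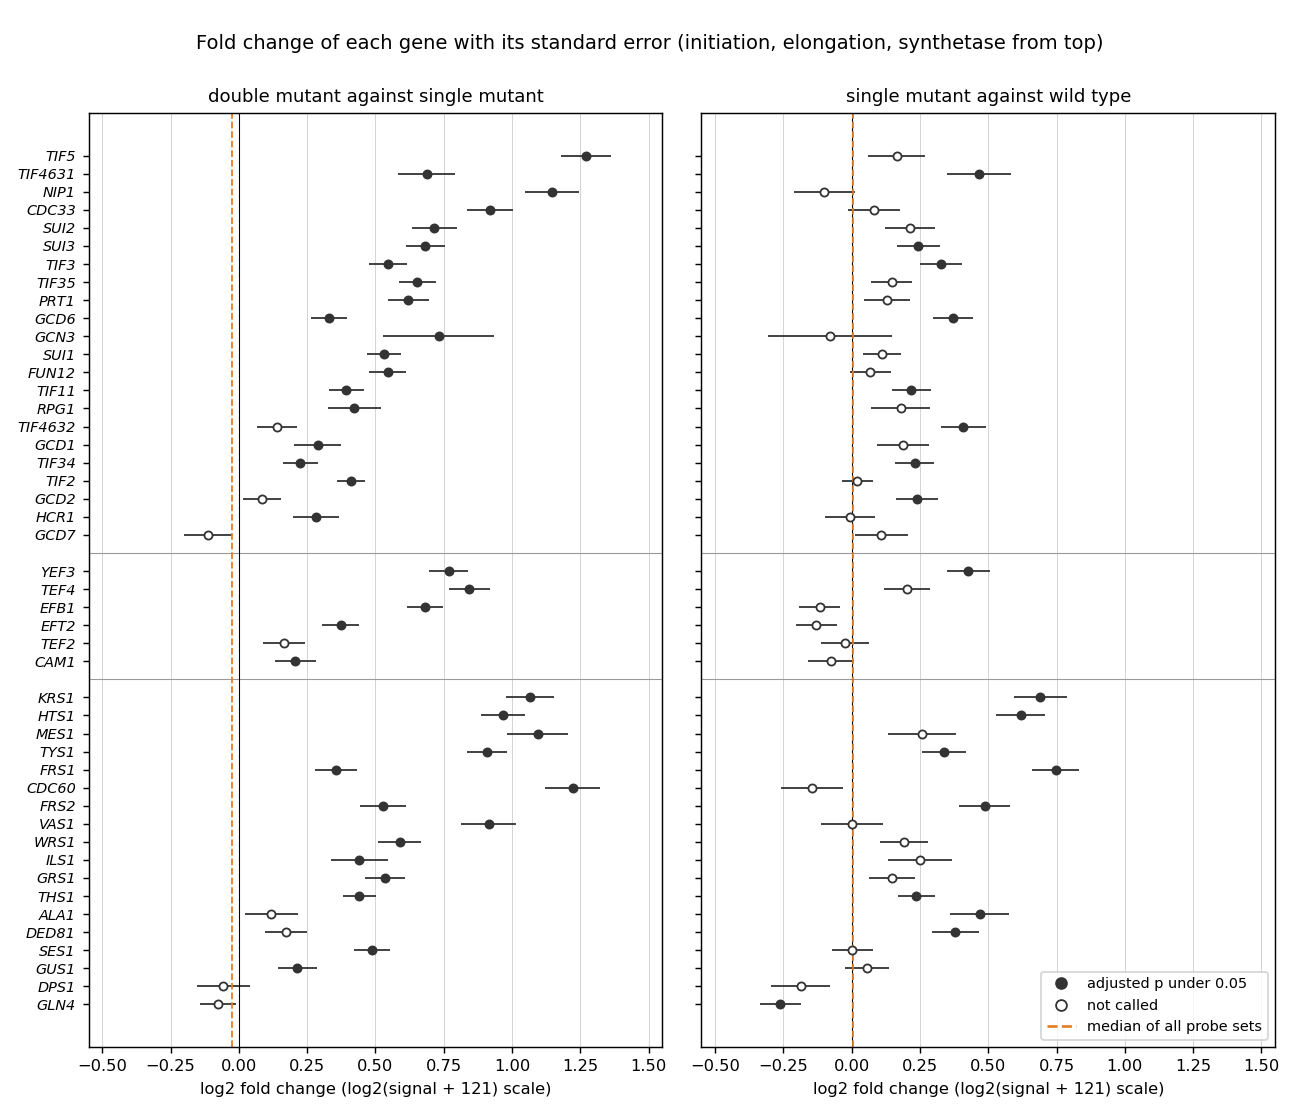
Log2 fold change of each gene with its standard error (horizontal bars), in the double mutant against the single mutant on the left and in the single mutant relative to the wild type on the right; filled points were called at an adjusted p under 0.05, and the dashed line is the median of all probe sets. On the left 38 of 46 points are filled and right of 0, while on the right 17 are filled and right of 0 and 1, GLN4, is filled and left of 0.

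The single mutant differed less from the wild type. Of the 22 initiation genes, 8 were higher and none was lower, with a median log2 fold change of 0.17. Elongation genes were higher in 1 of 6 cases, YEF3, with a median of -0.050. Of the 18 synthetase genes, 8 were higher and 1 was lower, with a median of 0.24. The shares higher were 36.4%, 16.7% and 44.4% in the same order, where 28.5% of all probe sets were higher and 22.1% lower, and the initiation and elongation shares are no result about these classes. Of these 18 calls, 7 were kept whichever array was left out, those of TIF4632, GCD6, YEF3, FRS1, FRS2, HTS1 and KRS1, and 4 under all alternatives, those of FRS1, FRS2, HTS1 and KRS1. GCD6, TIF4632 and YEF3 were not called with scaling on the poly-A controls, at limma adjusted p = 0.124, 0.081 and 0.057, each the highest over its alternatives. On the log2 scale these controls deviated from their mean over arrays by -0.48 on double-mutant replicate 1. On the other arrays they deviated by -0.012 to 0.19.

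The largest changes in the single mutant were in synthetase genes of class II. FRS1 was higher than in the wild type by 0.75 (limma adjusted p = 1.8e-04, SE 0.086), KRS1 by 0.69 (limma adjusted p = 5.6e-04, SE 0.10), HTS1 by 0.62 (limma adjusted p = 6.4e-04, SE 0.09) and FRS2 by 0.49 (limma adjusted p = 2.8e-03, SE 0.094). Class II genes were higher in 7 of 10 cases (70%), with a median of 0.42, and class I genes in 1 of 8 (12.5%), TYS1, with a median of 0.12. Of all probe sets 28.5% were higher and 22.1% lower, and the class I share is no result about that class. The difference between the classes was not tested, and the classes were compared after the values had been seen. TYS1 was at 0.34 (limma adjusted p = 7.9e-03, SE 0.081), and not called without replicate 1 of the wild type (0.28, limma adjusted p = 0.086). CDC60, MES1 and VAS1, among the largest changes between the mutants, were not called here, at -0.14 (limma adjusted p = 0.315, SE 0.11), 0.26 (limma adjusted p = 0.112, SE 0.12) and 0.0011 (limma adjusted p = 0.994, SE 0.11). Replicate 2 of the single mutant had the highest signal of its strain for 16 of the 18 synthetase genes, against 46.6% of all probe sets tested. Without that array 7 synthetase genes were called higher and 1 lower, against 8 and 1 with all arrays, and the class median was 0.15. The share of all probe sets called in that fit is not given here.

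In initiation and elongation, the single-mutant calls spread over several complexes. YEF3 was higher than in the wild type by 0.43 (limma adjusted p = 2.3e-03, SE 0.08), GCD6 by 0.37 (limma adjusted p = 3.0e-03, SE 0.073) and TIF4632 by 0.41 (limma adjusted p = 3.4e-03, SE 0.082). TIF4631 was higher by 0.47 (limma adjusted p = 9.5e-03, SE 0.12), but not called without replicate 1 of the wild type (0.43, limma adjusted p = 0.075). TIF5, NIP1 and CDC33, with the largest changes between the mutants in this class, were not called, at 0.16 (limma adjusted p = 0.214, SE 0.10), -0.10 (limma adjusted p = 0.486, SE 0.11) and 0.081 (limma adjusted p = 0.504, SE 0.094). In the eEF1 complex none of 4 genes was called, where 28.5% of all probe sets were called higher and 22.1% lower. TEF4 was at 0.20 (limma adjusted p = 0.070, SE 0.084) and EFB1 at -0.12 (limma adjusted p = 0.216, SE 0.074).

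The other single-mutant calls were lost when arrays were left out, mostly with fold changes close to those from all arrays. ALA1 and DED81 were higher by 0.47 and 0.38 but not called without replicate 1 of the wild type, at 0.40 and 0.36 (limma adjusted p = 0.070 and 0.052). TIF3 was higher by 0.33 but not called without replicate 2 of the wild type, at 0.29 (limma adjusted p = 0.077). SUI3, GCD2, TIF34, TIF11 and THS1 were higher by 0.24, 0.24, 0.23, 0.22 and 0.24, and GLN4 was lower, at -0.26. None of these 6 was called without replicate 1 of the wild type, at 0.28, 0.26, 0.23, 0.21, 0.24 and -0.25 in the same order. None was called without replicate 2 of the wild type either, at 0.21, 0.22, 0.24, 0.23, 0.23 and -0.27. Each of the 6 was also lost without at least 2 of the 3 single-mutant arrays. In fits with 1 wild-type array, that array is assumed to vary like the other strains.

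**Figure D3:**
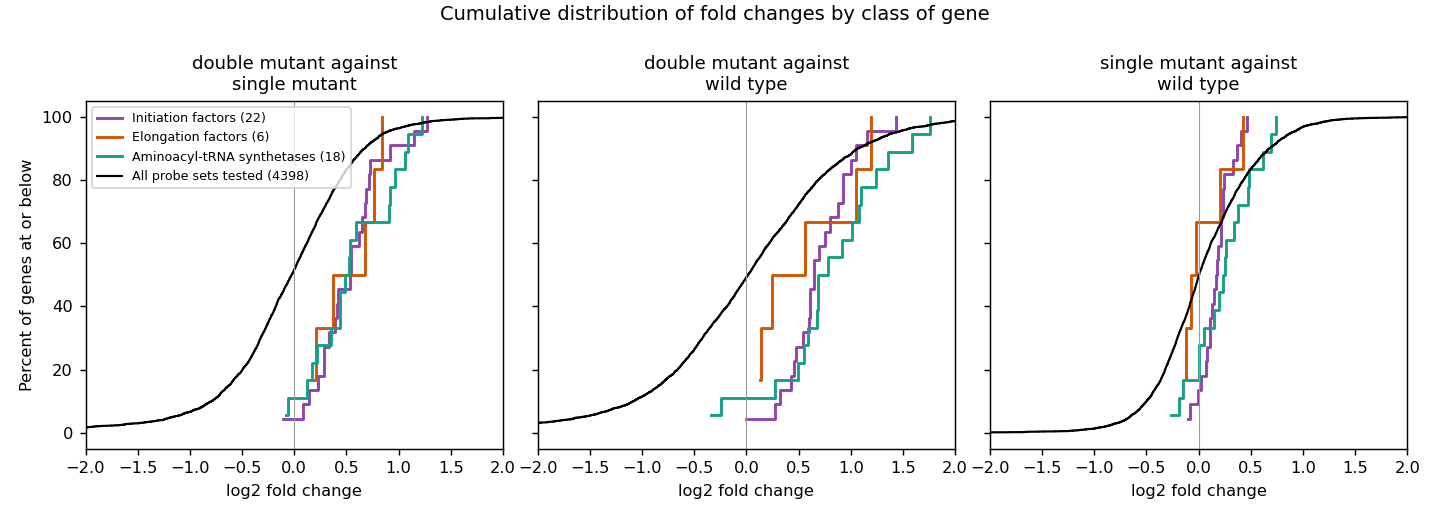
Percent of genes at or below each log2 fold change, for the 22 initiation, 6 elongation and 18 synthetase genes and for all 4398 probe sets tested, in the double mutant against the single mutant, the double mutant against the wild type and the single mutant against the wild type. The class curves lie right of the curve of all probe sets in both double-mutant panels except at the upper end, where they cross it. Their medians are 0.54, 0.53 and 0.51 against -0.025 in the first panel, and they lie closer to that curve in the third.

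Several factors come as paralogue pairs, and the values of both partners are given side by side. TIF4631 and TIF4632 encode the 2 forms of eIF4G. TIF4631 had signals of 1707, 1802 and 1360.2 in the double mutant, 980.2, 993 and 896 in the single mutant, and 641 and 675 in the wild type, with no overlap between strains. TIF4632 had 762, 675 and 741 in the double mutant, 612, 693 and 640.4 in the single mutant, and 463 and 454 in the wild type, where the double and the single mutant overlapped above the wild type. TIF4631 was higher in the double mutant by 0.69 (limma adjusted p = 4.0e-04, SE 0.10) against the single mutant and by 1.15 (limma adjusted p = 2.1e-05, SE 0.12) against the wild type. For TIF4632 these values were 0.14 (limma adjusted p = 0.122, SE 0.073), not called, and 0.55 (limma adjusted p = 2.7e-04, SE 0.082). The log2 signal of TIF4631 minus that of TIF4632 was higher in the double mutant than in the single mutant by 0.55, with no overlap (exact two-sided permutation p = 0.1, the smallest that 3 against 3 arrays allow, and 0.24 after Benjamini-Hochberg adjustment over 6 tests).

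TEF4 and CAM1 encode the 2 forms of the gamma subunit of eEF1B. TEF4 had signals of 5162, 5599 and 6248 in the double mutant, 3085, 3162 and 3044 in the single mutant, and 2656 and 2688 in the wild type, with no overlap between strains. CAM1 had 2113, 1901 and 1932 in the double mutant, 1815, 1697 and 1594 in the single mutant, and 1791 and 1804 in the wild type, where only the double mutant stood apart. TEF4 was higher in the double mutant by 0.84 (limma adjusted p = 2.0e-05, SE 0.075) against the single mutant and by 1.05 (limma adjusted p = 5.1e-06, SE 0.084) against the wild type. CAM1 was at 0.21 (limma adjusted p = 0.037, SE 0.075) and 0.13 (limma adjusted p = 0.186, SE 0.084), the second not called. The CAM1 call against the single mutant ended without any of 5 arrays, among them single-mutant replicate 3 (log2 fold change 0.16, limma adjusted p = 0.147, within 4.3e-03 to 0.485 over its alternatives). It was 0.21 without single-mutant replicate 2, 0.16 without double-mutant replicate 1 and 0.21 without either wild-type array. TEF4 minus CAM1 was higher in the double mutant than in the single mutant by 0.64, with no overlap, at the same exact permutation p of 0.1 and adjusted p of 0.24. TIF1 and EFT1, the partners of TIF2 and EFT2, had no probe set of their own and give no pair.

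For YEF3, the helicase gene DED1 and GRS1, a related gene outside the 48 was lower in the double mutant. These pairs were picked after their values had been seen and their differences were not tested. A further pair picked in that way, HYP2 and ANB1, which encode 2 forms of eIF5A, went the other way. ANB1 was higher in the double mutant than in the wild type by 2.67 (limma adjusted p = 5.8e-04, SE 0.45). HYP2 was not called there, at 0.15 (limma adjusted p = 0.105, SE 0.074). HEF3, the paralogue of YEF3, had signals of 434, 269.7 and 286 in the double mutant, 1900.2, 1663 and 1952 in the single mutant, and 3358 and 3257 in the wild type, and the strains did not overlap. Its log2 fold change was -2.13 (limma adjusted p = 2.5e-06, SE 0.13) against the single mutant and -2.94 (limma adjusted p = 3.5e-07, SE 0.15) against the wild type, while YEF3 was at 0.77 and 1.19. DED1 and DBP1 encode related RNA helicases of initiation. DED1 was higher by 1.12 (limma adjusted p = 9.6e-05, SE 0.13) and 1.27 (limma adjusted p = 5.2e-05, SE 0.15) against the single mutant and the wild type, and DBP1 was lower, at -1.30 (limma adjusted p = 1.8e-05, SE 0.11) and -1.83 (limma adjusted p = 2.3e-06, SE 0.13). GRS2, the paralogue of GRS1, had signals of 257, 217 and 257 in the double mutant, 375, 379 and 368 in the single mutant, and 448 and 408 in the wild type, lowest in the double mutant on every array. GRS2 was at -0.44 (limma adjusted p = 5.1e-04, SE 0.07) against the single mutant and -0.59 (limma adjusted p = 1.2e-04, SE 0.078) against the wild type, while GRS1 was higher by 0.53 and 0.68. Both GRS2 calls ended with scaling on the poly-A controls, at -0.26 and -0.37 (limma adjusted p = 0.158 and 0.063, each the highest over its alternatives).

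**Figure D4:**
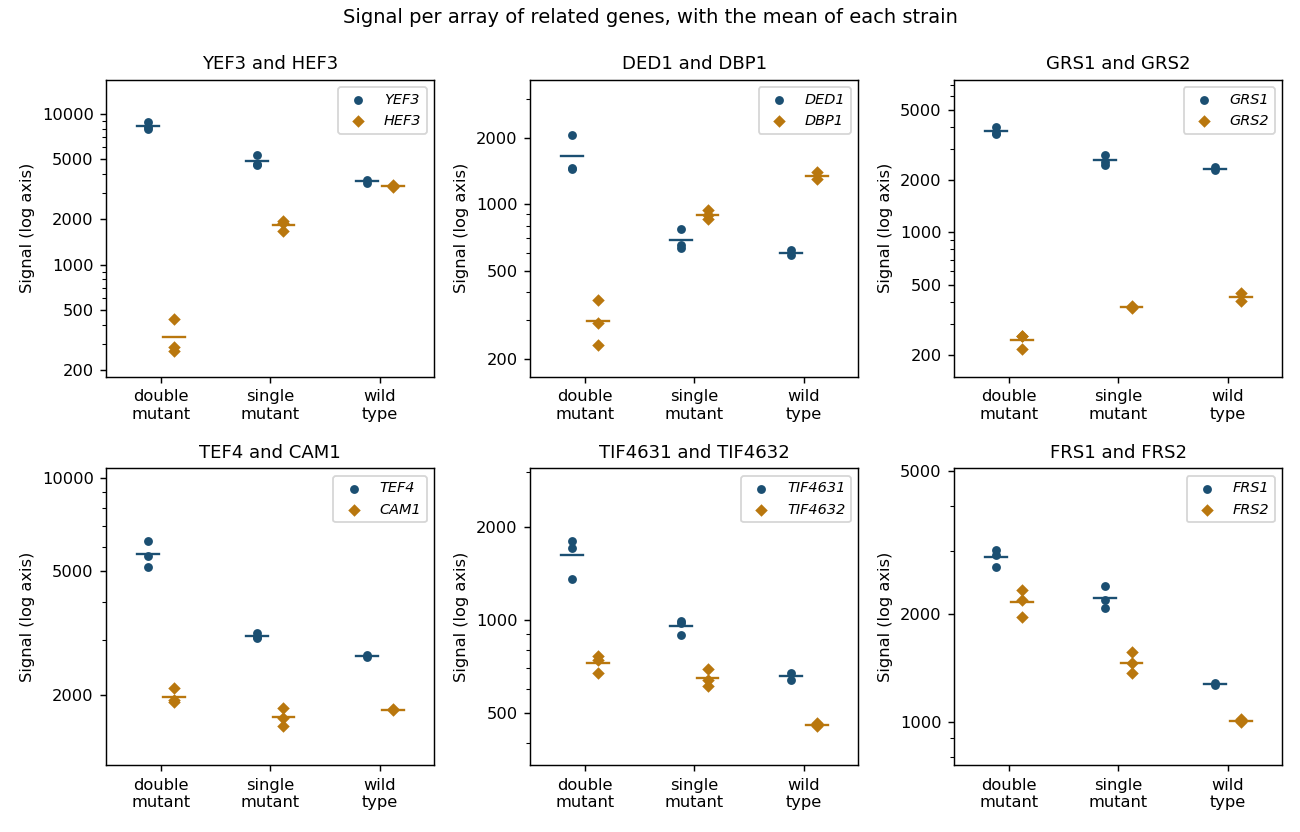
Signal per array, on a log axis, of 6 pairs of related genes in the double mutant, the single mutant and the wild type, with short lines for the mean of each strain; levels of different genes come from different probes and are not comparable. HEF3, DBP1 and GRS2 are lowest in the double mutant while YEF3, DED1 and GRS1 are highest there, and CAM1 and TIF4632 change less than TEF4 and TIF4631.

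The rest of the cytosolic machinery was read from lists of genes beside the 48. Of 11 other initiation genes, 7 were higher and 1 lower in the double mutant against the single mutant, and 8 and 1 against the wild type. Over all probe sets, 31.8% were higher and 35.8% lower between the mutants, and 37.9% and 36.6% against the wild type. DED1 and DBP1 had the largest changes of this list in each direction between the mutants. ANB1, the form of eIF5A made in low oxygen, was higher in the single mutant than in the wild type by 2.19 (limma adjusted p = 3.9e-03, SE 0.45), with signals of 992, 1235 and 1718 in the double mutant, 1327, 350.2 and 1399.9 in the single mutant, and 109.7 and 91.8 in the wild type. Replicate 2 of the single mutant was far below the other two, though above the wild type. Between the mutants ANB1 overlapped and was not called. Of 6 other elongation genes, 2 were higher and 2 lower in the double mutant against the single mutant, shares of 33.3% each that are near the 31.8% and 35.8% of all probe sets, with NEW1, a relative of eEF3, at 0.95 (limma adjusted p = 2.2e-05, SE 0.086). Of 5 genes of termination and ribosome recycling, 4 (80%) were higher and none lower, with SUP45, the release factor eRF1, at 0.78 (limma adjusted p = 9.6e-06, SE 0.061) and RLI1, the recycling ATPase, at 0.75 (limma adjusted p = 5.6e-05, SE 0.081). The smallest of the 4 changes, at 0.21 (limma adjusted p = 0.033, SE 0.073), was not called under 9 of 21 alternatives, among them quantile normalization and hybridization control scaling. Of 4 other cytosolic synthetase genes, 2 (50%) were higher and 1 (25%), GRS2, lower, where 31.8% and 35.8% of all probe sets were. YHR020W was at 0.62 (limma adjusted p = 4.1e-04, SE 0.095) against the single mutant and 1.38 (limma adjusted p = 3.9e-06, SE 0.11) against the wild type.

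Genes of the Gcn4 pathway, which acts through eIF2, were read as well. Of 5 such genes, none was higher and 2 were lower in the double mutant against the single mutant, and 40% lower is near the 35.8% of all probe sets. GCN2, the kinase that phosphorylates SUI2's product, had signals of 327, 202 and 302 in the double mutant, 625, 626 and 598 in the single mutant, and 742 and 743 in the wild type. Every double-mutant signal was below every other, and GCN2 was at -0.90 (limma adjusted p = 1.4e-04, SE 0.11) against the single mutant and -1.13 (limma adjusted p = 4.5e-05, SE 0.13) against the wild type. YIH1, which encodes an inhibitor of Gcn2 activation, was at -0.39 (limma adjusted p = 0.027, SE 0.13) and -1.05 (limma adjusted p = 1.9e-04, SE 0.15), and its call against the single mutant ended without double-mutant replicate 2 or 3 and with quantile normalization, median centring and poly-A control scaling (limma adjusted p up to 0.265 over its alternatives). Without single-mutant replicate 2 it was -0.22. GCN4 itself was not called, at 0.049 (limma adjusted p = 0.569, SE 0.073).

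Mitochondrial translation genes were mixed. Of 13 tested mitochondrial synthetase genes, 6 were higher and 1 lower in the double mutant against the single mutant, with a median log2 fold change of 0.10. The median was 0.51 for the 18 synthetase genes described above, 4 of which also make the mitochondrial enzyme. These are shares of 46.2% and 7.69%, where 31.8% of all probe sets were higher and 35.8% lower. Among the 6, the call of MSF1, at 0.30 (limma adjusted p = 0.037, SE 0.11), ended under 9 of 20 alternatives, as did another. MST1 (threonine) had the largest change, with signals of 490.0, 363 and 939 in the double mutant, 238, 264 and 229 in the single mutant, and 142 and 144 in the wild type. Its double-mutant signals were all above the others, but replicate 3 was far above replicates 1 and 2. MST1 was at 0.90 (limma adjusted p = 8.2e-03, SE 0.23) against the single mutant and 1.36 (limma adjusted p = 1.2e-03, SE 0.26) against the wild type, and without double-mutant replicate 3 at 0.58 and 1.04, both still called. MSK1 (lysine) was at 0.69 (limma adjusted p = 1.4e-04, SE 0.087) against the single mutant. MSW1 (tryptophan) was higher than in the wild type by 1.02 (limma adjusted p = 1.8e-05, SE 0.10) in the double mutant and 0.73 (limma adjusted p = 4.8e-04, SE 0.10) in the single mutant, and MSF1 (phenylalanine) by 0.80 (limma adjusted p = 2.9e-04, SE 0.12) and 0.50 (limma adjusted p = 8.4e-03, SE 0.12). The MSF1 call in the single mutant ended without replicate 2 of the wild type (limma adjusted p up to 0.076 over its alternatives). Of 6 tested mitochondrial translation factors, 4 (66.7%) were higher and 1 (16.7%) lower in the double mutant against the single mutant, where 31.8% and 35.8% of all probe sets were. TUF1, the mitochondrial form of the tRNA-delivering factor, was at 0.60 (limma adjusted p = 4.1e-04, SE 0.091), and MEF2, a mitochondrial factor related to eEF2, at -0.93 (limma adjusted p = 1.5e-04, SE 0.12). Against the wild type 2 factors were higher and 2 lower, shares of 33.3% each that are near the 37.9% and 36.6% of all probe sets. The difference between the cytosolic and mitochondrial lists was not tested.

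The 46 genes lie on 14 chromosomes, with 7 on chromosome VII and 6 each on XV and XVI. Within a strain their signals varied little, with a median coefficient of variation over the initiation genes of 6.20% in the double mutant, 5.37% in the single mutant and 2.78% in the wild type. For the synthetases it was 5.52%, 7.17% and 2.84%, and the largest of any member was 40.9%, for GCN3 in the double mutant. Of the 38 calls in the double mutant against the single mutant, 34 were kept whichever array was left out and 31 under all alternatives. Compared with the wild type 38 of 42 were kept without any 1 array and 37 under all alternatives.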

How the data were processed

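Signals were computed by the submitters with the MAS5 algorithm of the GCOS software, as named in the submitters' processing notes, where the sources used here state no version. The deposited values are probe-set signals on a linear intensity scale, scaled to a common trimmed mean. The deposited array description files gave fluidics station and chip lot (1 lot for all arrays). Probe sets were named through GEO's platform annotation and RefSeq's gene table. A gene with several probe sets was read by the brightest.

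Signals were taken as log2(signal + 121), 121 being the 10th percentile of S. cerevisiae signals, and dropping the dimmest 20% of probe sets by mean left 4398. limma 3.58.1 (R 4.3.3; lmFit, eBayes with an intensity trend) was fitted to all 8 arrays, with Benjamini-Hochberg adjustment over all 4398. Pairs of paralogues were tested with exact permutation tests (scipy 1.17.1). The number of arrays per strain limits the precision. On simulated arrays built from these, changes in 50 probe sets per fold size were called less often the smaller they were. At simulated sizes of 1.2-fold, 1.5-fold and 2-fold, the share called was 24%, 84% and 94% between the mutants. For the double mutant against the wild type it was 12%, 74% and 90%. For the single mutant against the wild type it was 10%, 64% and 88%. Far fewer probe sets were changed in the simulation than were called in the data. The adjusted threshold was then stricter in the simulation, so these shares do not carry over to the data. Alternatives were the pseudocount, normalization, scaling on control probe sets, the filter, shared probe sets, the variance model, a replicate block and each array left out.

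The 48 genes and all lists were chosen with earlier results of these data known, and the grouping of members by complex or synthetase class was chosen after values had been seen. Signals of each array were given for the 3 called members of largest change per comparison and class, for 4 paralogue pairs fixed with the design, and for further members and related genes picked after their values were seen. From each other list at most the 2 called genes of largest change per comparison were to be named, and not all of these are given. GCD11, GCN4, GRS2 and HYP2 were named outside this rule. The member sequences were not used here.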

Additional observations from a re-analysis of the deposited data

How the results depend on the processing

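Between the mutants and between the double mutant and the wild type, the number of members called higher stayed within 1.5 times its value under all 21 alternatives. Members called higher in the single mutant relative to the wild type numbered 17, but 4 with poly-A control scaling, and 8 to 18 with each array left out in turn. Members called lower there numbered 1, but 3 with quantile normalization, 2 with only the 2 groups compared, 0 with poly-A control scaling, 0 with hybridization control scaling, 0 with the replicate block, and 0 to 1 with 1 array left out. In the double mutant against the wild type they numbered 1, but 2 with quantile normalization, 0 with poly-A control scaling, and 1 to 2 with 1 array left out. EFT2 in the double mutant against the wild type reversed with quantile normalization (-0.033, limma adjusted p = 0.337), and the cause was not tested. The log2 deviation of the poly-A controls was -0.48 on double-mutant replicate 1 and -0.012 to 0.19 on the other arrays. The fit takes 1 estimate of the spread from all 8 arrays. Whether that array ended single-mutant calls under poly-A control scaling was not tested. Over all probe sets, 2227 calls in the single mutant relative to the wild type became 1228 with poly-A control scaling, 1406 to 2516 with 1 array left out, and 1377 with the lowest 50% left out, where fewer probe sets were tested; that filter also gave 1930 between the mutants, against 2971 as reported, and 2092, against 3277, for the double mutant against the wild type. Higher calls made up 56.3% of all calls in the single mutant relative to the wild type (69.4% with either control scaling), 47.0% between the mutants (60.0% with median centring, 68.8% with poly-A control scaling), and 50.9% in the double mutant against the wild type (68.5% with poly-A control scaling). The median of all probe sets between the mutants was -0.025, but 0.11 with median centring, 0.19 with poly-A control scaling and -0.13 with hybridization control scaling, and the median of the members lay 0.39 to 0.59 above it throughout; for the double mutant against the wild type poly-A control scaling moved it to 0.28. A pseudocount of 500 shrank the changes of dimmer genes by more than 1.5 times, among them TIF4632 against the wild type (0.35 in the double mutant), GCN2 between the mutants (-0.53), and ANB1 in the single mutant (1.26). Deviations of same-numbered single-mutant and double-mutant arrays from their strain means correlated at -0.0744, -0.0931 and 0.0548. For the single mutant and the wild type, which share only 2 numbers, they correlated at 0.109 and 0.142, and for the double mutant and the wild type at -0.0409 and 0.0386. With so few arrays the deviations within a strain are tied to each other. These values therefore cannot decide whether replicate numbers pair the samples. The replicate block called 38 members higher and 0 lower between the mutants, 40 and 1 in the double mutant against the wild type, and 14 and 0 in the single mutant relative to the wild type.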
